A study of Homo sapiens with 6 samples.

Results

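The Wnt ligands, receptors, antagonists and core signalling genes were followed in U-2 OS human osteosarcoma cells after knock-down of SFPQ. The set was formed by gene symbol: protein-coding genes whose name begins with WNT and a digit or with FZD, DKK, SFRP or RSPO, together with LGR4 to LGR6, the TCF7 family, LEF1, LRP5, LRP6, CTNNB1, AXIN1, AXIN2, APC and WIF1. This gave 56 of the 60664 genes in the count table, of which 19942 were protein-coding. The rule itself uses names and no measured value, though the set was taken up with earlier results of these data known. The set holds 19 ligands, 4 R-spondins, 15 receptors and co-receptors, 10 secreted antagonists, 4 genes of the destruction complex and β-catenin, and 4 TCF/LEF factors.

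U-2 OS is an established, polyploid line derived from bone, and the same line was used for all 6 libraries. The 3 siControl libraries came from cells given a control siRNA and the 3 siSFPQ libraries from cells given siRNA against SFPQ, an RNA- and DNA-binding protein of the nucleus. The study calls the libraries of a group biological replicates. The siRNAs were used at 30 nM by lipid transfection, and polyadenylated RNA was sequenced in pairs of 150 bp reads. The interval between transfection and harvest is not given in the sources used here, and the design has no rescue arm, so the gene-specific and any other action of the siRNA cannot be told apart. Total counts were 46142855, 47119203 and 46830736 in siControl and 43469321, 45511855 and 45543610 in siSFPQ. At these depths 3 counts, taken as the floor, equal between 0.0637 and 0.069 CPM, the counts scaled for library size. As a check of the labels, SFPQ itself (chromosome 1) had 22338, 23139 and 21753 counts in siControl and 3140, 3863 and 3151 in siSFPQ, a log2 fold change of -2.73 ± 0.05 (SE).

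Wnt proteins are secreted, lipid-modified ligands. In the canonical branch they bring a Frizzled receptor together with the co-receptor LRP5 or LRP6, which halts the complex of APC, AXIN and kinases that marks β-catenin for destruction. Stabilized β-catenin then enters the nucleus and works with TCF/LEF factors on target genes. R-spondins, acting through LGR receptors, keep Frizzled on the cell surface, whereas several DKK and SFRP proteins act outside the cell as antagonists. Other ligands, WNT5A, WNT5B and WNT11 among them, are best known for signalling that bypasses β-catenin, and the pathway as a whole is central to bone formation.

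Of the 56 genes, 50 had at least 10 counts over the 6 libraries and were tested. The other 6, WNT2, WNT8A, WNT9B, DKK4, SFRP2 and WIF1, had at most 3 counts in any library, and WIF1 had 0 in each. Here a gene is said to rise or fall where its adjusted p was under 0.05. Adjusted p-values come from the quasi-likelihood test of edgeR, adjusted by Benjamini-Hochberg over all 29022 genes tested. By this measure 14 Wnt genes rose, 17 fell and 19 did not pass. Over all genes tested 22.4% rose and 22.1% fell. Among the tested protein-coding genes, the class to which the set belongs, 28% rose and 30.9% fell, and the Wnt counts are read against these shares. With the additional requirement of a log2 fold change beyond 1.5 in either direction, 3 Wnt genes were higher (WNT7B, WNT16 and SFRP5) and 5 were lower (WNT5B, WNT11, RSPO4, TCF7L1 and DKK2). The same thresholds took in 5.54% of all genes as higher and 4.77% as lower. In normalized counts all siSFPQ libraries lay above all siControl libraries for 15 Wnt genes and below them for 16, and the groups overlapped for 19. Over all genes tested, 52.3% showed no overlap in either direction. Of the 16477 tested protein-coding genes, 5195 lay above, 5543 lay below and 5739 overlapped, so the Wnt genes were not more often apart than their class. The median log2 fold change of the 50 genes was 0.12, and that of all genes tested was 0.02.

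The genes were also split by abundance. The 37 Wnt genes with a mean of at least 1 CPM comprised 12 that rose, 16 that fell and 9 that did not pass. Among all genes at that level 30.1% rose and 34.5% fell. The stricter thresholds held for 1 of the 37 as higher and 4 as lower, and for 5.92% of all genes of that abundance in either direction. Of the 19 scarcer Wnt genes, 13 were tested, 2 rose (WNT16 and SFRP5) and 1 fell (DKK2), where 13.5% of all tested genes under 1 CPM rose and 7.71% fell. The median log2 fold change was -0.08 for the 37 more abundant genes and 0.44 for the 13 scarcer ones tested.

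**Figure D1:**
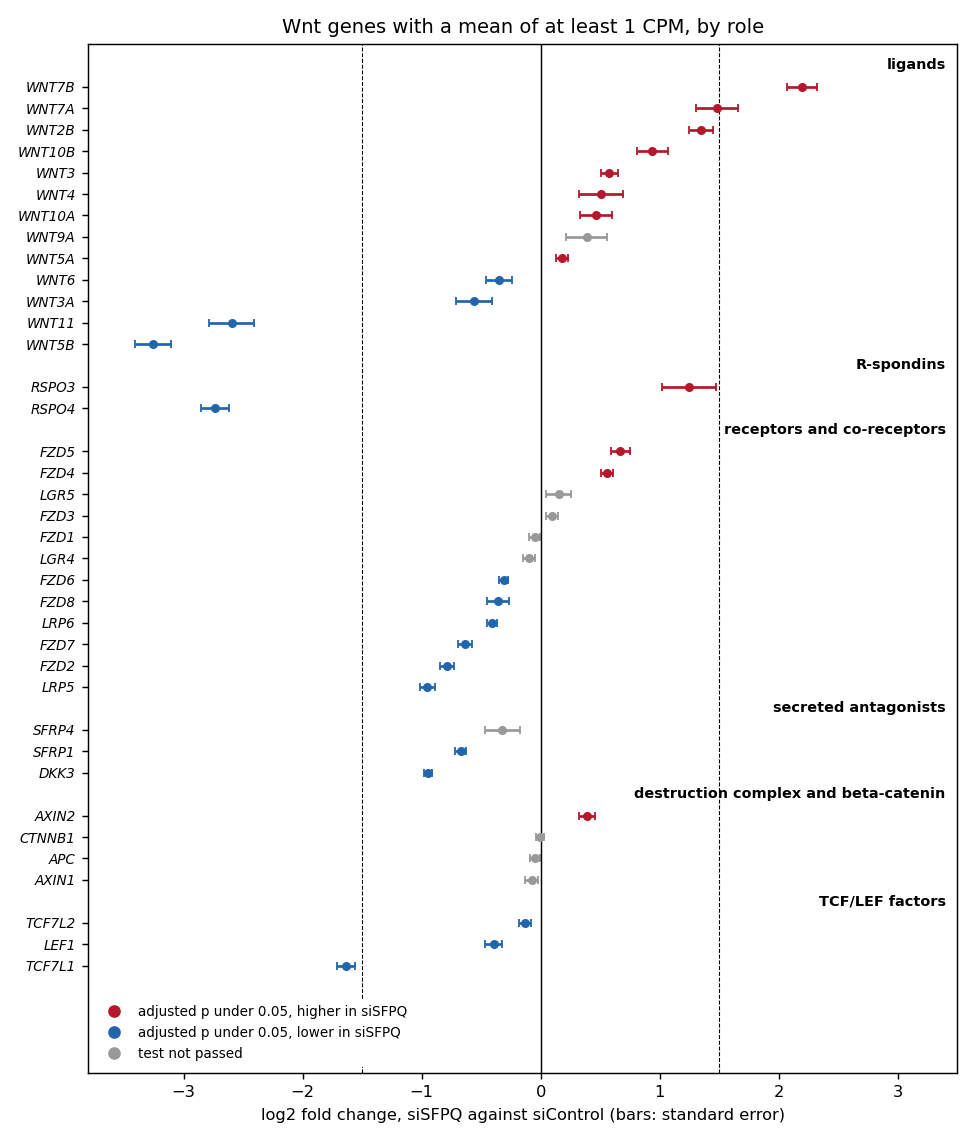
Log2 fold change of siSFPQ against siControl for the 37 Wnt genes with a mean of at least 1 CPM, grouped by role, with points for the estimate, bars for the standard error, and dashed lines at 1.5 in both directions. WNT5B, WNT11, RSPO4 and TCF7L1 lie beyond the lower line and WNT7B beyond the upper one, while receptors lie between -0.95 (LRP5) and 0.67 (FZD5).

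The ligands moved in both directions: 9 of the 16 tested rose, where 28% of tested protein-coding genes did, and 4 fell, where 30.9% did. The other 3 did not pass, and the median log2 fold change of the ligands was 0.48. The largest fall was that of WNT5B (ENSG00000111186, chromosome 12, 1529891 to 1647212 on GRCh38), a ligand of the β-catenin-independent branch. Its counts were 395, 465 and 363 in siControl and 49, 35 and 44 in siSFPQ. The groups were far apart, with every siSFPQ library several-fold under the lowest control. The log2 fold change was -3.26 ± 0.15 (SE), a 9.55-fold reduction (adjusted p = 5.55e-19). WNT11 (ENSG00000085741, chromosome 11), which is likewise known for signalling without β-catenin, had 197, 195 and 170 counts in siControl and 26, 25 and 42 in siSFPQ. Again no library overlapped, although siSFPQ replicate 3 was higher than the other two. WNT11 fell by 2.60 ± 0.19 on the log2 scale (adjusted p = 1.63e-13). WNT3A, a classical activator of β-catenin signalling, fell by 0.56 ± 0.15, from 156 ± 19.8 (SD, n = 3) to 105 ± 10.7 normalized counts. WNT6 fell by 0.35 ± 0.11, with normalized means of 383 ± 44.7 and 300 ± 42.2 and groups that were barely apart. The adjusted p of WNT6, 0.00854, was 0.0673 without siControl replicate 2 and 0.129 without siSFPQ replicate 1.

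WNT7B, a ligand that acts through β-catenin in several epithelia, rose most among the ligands above 1 CPM. WNT7B (ENSG00000188064, chromosome 22, 45920366 to 45977162) had 70, 81 and 83 counts in siControl and 361, 354 and 360 in siSFPQ. Replicates of a group lay close together and the groups were well apart. The log2 fold change was 2.19 ± 0.13, a 4.58-fold increase (adjusted p = 2.68e-16). Its paralogue WNT7A (ENSG00000154764, chromosome 3) had 47, 63 and 45 counts in siControl and 135, 158 and 142 in siSFPQ. This rise of 1.48 ± 0.18 (adjusted p = 1.45e-08) was just under the 1.5 threshold, which it passed without siControl replicate 2 (1.65), siSFPQ replicate 1 (1.52) or siSFPQ replicate 3 (1.51), and also when scaled by library size alone (1.545). WNT2B went from 195 ± 21.1 to 498 ± 13.7 normalized counts, a rise of 1.35 ± 0.10. The transcripts of WNT2B share 21.5% of their exon bases with ST7L on the opposite strand, and ST7L had a log2 fold change of 0.06 with an adjusted p of 0.496. Smaller rises were those of WNT10B (0.94 ± 0.13), WNT3 (0.57 ± 0.07), WNT4 (0.50 ± 0.18) and WNT10A (0.46 ± 0.14). The call for WNT4 was lost with DESeq2 (adjusted p = 0.0686) and without siControl replicate 2 (0.0705), siSFPQ replicate 2 (0.0736) or siSFPQ replicate 3 (0.0792), and that for WNT10A without siControl replicate 2 (0.0519).

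WNT5A, the closest relative of WNT5B, was the most abundant ligand per length of exon. It had 1904, 2117 and 1896 counts in siControl and 2234, 2294 and 2182 in siSFPQ. The siSFPQ libraries all lay above the controls, by a narrow margin, and the log2 fold change was 0.18 ± 0.05 (adjusted p = 0.00424). The pair therefore had changes of opposite sign and very unequal size. WNT16, a ligand known for its part in cortical bone, was almost absent, with 1, 1 and 0 counts in siControl and 5, 10 and 4 in siSFPQ. The ratio of its summed reads was 9.47, with a 95% exact interval for counting error of 2.28 to 83.8, and the adjusted p was 0.0303. That call rests on few reads and was lost with DESeq2 (adjusted p = 0.0548), with a replicate block (0.0662), and without siControl replicate 3 (0.0829), siSFPQ replicate 1 (0.0517) or siSFPQ replicate 2 (0.141). The remaining tested ligands did not pass: WNT9A had a log2 fold change of 0.38 ± 0.17, WNT8B of 0.96 ± 0.47, and WNT1 had 7 reads over the siControl libraries against 3 over the siSFPQ libraries. Without siControl replicate 2 WNT9A passed (0.61, adjusted p = 0.00684), as did WNT8B without siControl replicate 3 (1.32, adjusted p = 0.0485).

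**Figure D2:**
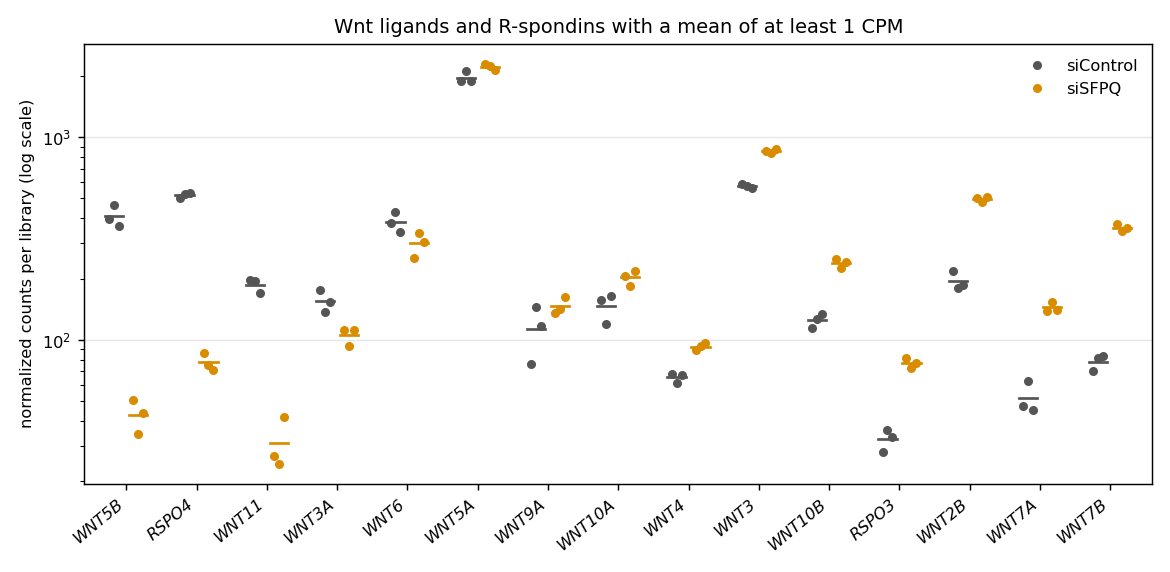
Normalized counts per library, on a log axis, of the Wnt ligands and R-spondins with a mean of at least 1 CPM, ordered by log2 fold change, with points for libraries and lines for group means. WNT5B, RSPO4 and WNT11 stand far lower in siSFPQ at the left, and WNT7B rises from a mean of 78.1 to 358 normalized counts at the right.

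To compare levels between genes, CPM was divided by the length of each gene's merged exons in kb. On this scale the 19 ligands together summed to 22.36 ± 1.11 (SD, n = 3) in siControl and 23.54 ± 0.292 in siSFPQ. The groups overlapped in this sum, which spanned 21.37 to 23.56 in siControl and 23.23 to 23.81 in siSFPQ. Its make-up differed between the groups. WNT5B supplied 9.389% of the ligand sum in siControl and 0.9364% in siSFPQ, and WNT11 went from 7.733% to 1.208%. Over the same comparison WNT7B went from 1.506% to 6.543%, WNT10B from 4.716% to 8.572% and WNT3 from 10.46% to 14.77%. WNT5A held the top place in both groups, with 26.99% and 29.0%. These shares count transcripts and say nothing of secreted protein. In bulk RNA, fewer cells making a transcript and less of it per cell cannot be told apart.

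**Figure D3:**
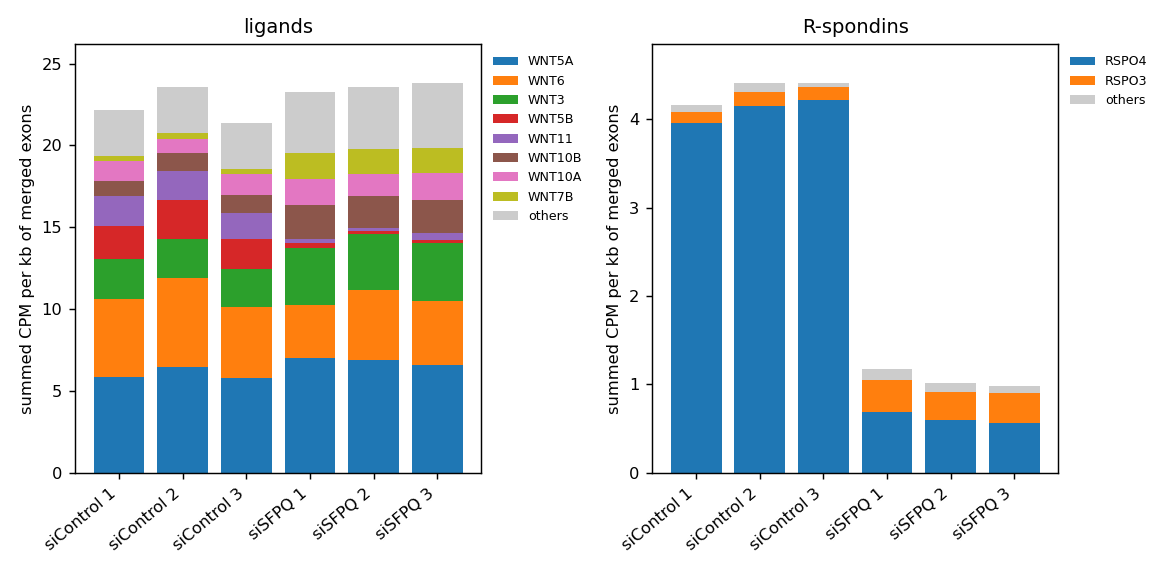
Summed level of the ligands (left) and the R-spondins (right) in each library, in CPM per kb of merged exons, with coloured segments for genes. The ligand columns are of similar height in both groups while the WNT5B and WNT11 segments shrink and WNT7B widens, and the R-spondin columns drop from a mean of 4.329 to 1.06.

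Among the R-spondins, RSPO4 fell and RSPO3 rose. RSPO4 (ENSG00000101282, chromosome 20, 958452 to 1002311), known for its role in nail development, had 499, 524 and 531 counts in siControl and 84, 77 and 72 in siSFPQ. The controls were tightly grouped and far above the knock-down libraries. RSPO4 fell by 2.74 ± 0.12 on the log2 scale, a 6.68-fold reduction (adjusted p = 8.48e-20). RSPO3, in contrast, had 28, 36 and 33 counts in siControl and 79, 74 and 78 in siSFPQ, a rise of 1.24 ± 0.23 (adjusted p = 2.73e-05). RSPO3 shares 15.7% of its exon bases with a gene on the opposite strand. RSPO1 and RSPO2 had at most 14 counts in a library, and neither passed. In the per-length sum of the family RSPO4 made up 95% in siControl and 58.09% in siSFPQ, and RSPO3 3.292% and 32.12%. The sum itself was 4.166, 4.414 and 4.408 in siControl and 1.18, 1.013 and 0.9854 in siSFPQ. No library overlapped. With 3 libraries a group, an exact permutation test of such a sum cannot give a two-sided p below 0.1, so no p is given for it.

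None of the receptors passed the stricter thresholds, which 8.25% of protein-coding genes passed in either direction. All 15 receptors and co-receptors were tested, and 2 rose, 6 fell and 7 did not pass. The 53.33% that passed the test stand beside 58.95% of protein-coding genes. Both LRP co-receptors fell. LRP5, best known for its effect on bone mass, had 1343, 1398 and 1419 counts in siControl and 667, 737 and 755 in siSFPQ, a fall of 0.95 ± 0.06 (adjusted p = 7.49e-15). LRP6 fell by 0.41 ± 0.04, from 9542 ± 350 to 7190.03 ± 479 normalized counts. FZD6, the most abundant receptor per length, had 5283, 5393 and 5267 counts in siControl and 4038, 4511 and 4337 in siSFPQ. The groups were apart, and the spread was wider in siSFPQ. FZD6 fell by 0.31 ± 0.04 (adjusted p = 3.86e-08). FZD2 fell by 0.79 ± 0.06, FZD7 by 0.63 ± 0.06 and FZD8 by 0.36 ± 0.10.

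FZD4 and FZD5 rose, by 0.56 ± 0.05 and 0.67 ± 0.08 on the log2 scale. FZD4, a receptor of retinal vessels, shares 18.9% of its exon bases with PRSS23 on the opposite strand, which rose by 1.38. FZD4 had 1227, 1333 and 1326 counts in siControl, and PRSS23 had 26, 21 and 19. FZD1, FZD3, FZD9, FZD10 and the R-spondin receptors LGR4, LGR5 and LGR6 did not pass. Of these LGR4 was the most abundant LGR, with 2071, 2227 and 2235 counts in siControl and 2049, 2146 and 1940 in siSFPQ, and its groups overlapped (adjusted p = 0.131, or 0.0492 without siControl replicate 1). The summed receptor level was 103.6 ± 2.56 CPM per kb in siControl and 83.78 ± 0.824 in siSFPQ, and every siSFPQ library lay under every control. FZD6 contributed 27.62% and 27.5% of it and LRP6 19.4% and 18.08%.

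**Figure D4:**
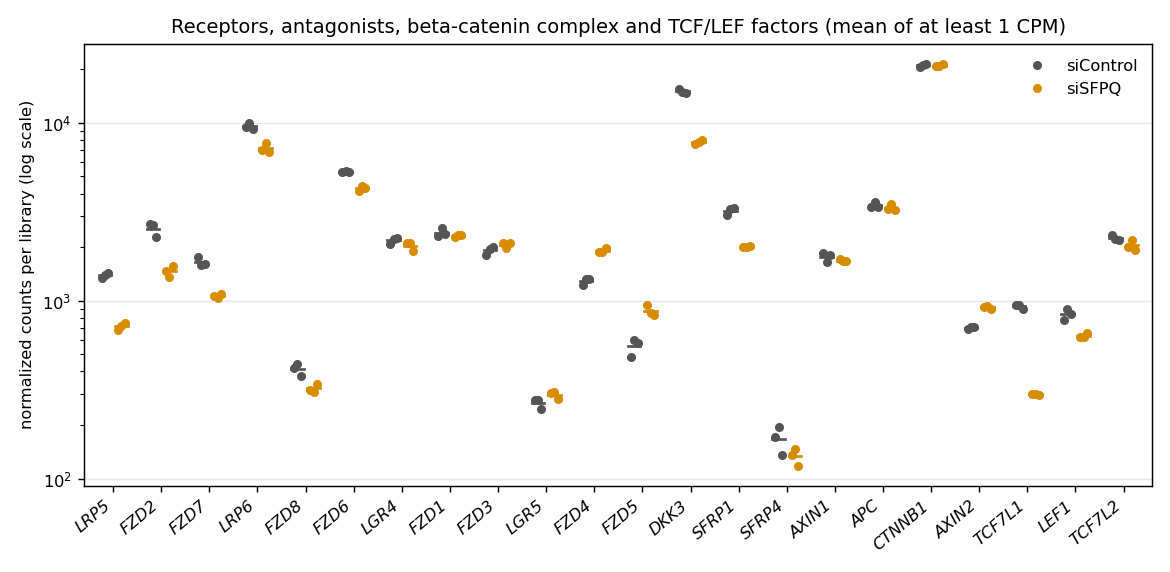
Normalized counts per library, on a log axis, of receptors, secreted antagonists, destruction complex genes with CTNNB1, and TCF/LEF factors with a mean of at least 1 CPM, ordered within each role by log2 fold change, with points for libraries and lines for group means. LRP5, DKK3 and TCF7L1 show the widest gaps between groups, and for CTNNB1 the groups overlap.

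The genes grouped by name as secreted antagonists were dominated by 2 genes, and both fell. Antagonist activity was not measured, so the sum below is one of transcripts in this name group. DKK3 (ENSG00000050165, chromosome 11), a divergent member of the Dickkopf family, had 15496, 14922 and 14609 counts in siControl and 7344, 8026 and 8067 in siSFPQ. The knock-down libraries lay far below the controls. DKK3 fell by 0.95 ± 0.04 (adjusted p = 1.05e-20). Of its exon bases, 47.5% lie opposite exons of USP47, which had a log2 fold change of -0.22, and the strand setting of the counting is not given in the sources used here, so reads of the pair over that stretch cannot be told apart. SFRP1, which binds Wnt ligands and Frizzled receptors, fell by 0.67 ± 0.05, from 3013, 3280 and 3291 counts to 1937, 2051 and 2054. The per-length sum of the antagonists was 43.92 ± 0.239 in siControl and 25.15 ± 0.404 in siSFPQ, of which DKK3 made up 62.56% and 56.64% and SFRP1 33.64% and 36.91%. Levels and shares depend on the length used: with canonical transcripts the sum was 147.9 and 79.4 CPM per kb, and the shares of SFRP1 were 10.59% and 12.4%.

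DKK2, an antagonist that binds LRP6, was scarce, with 10, 12 and 24 counts in siControl and 2, 0 and 3 in siSFPQ. The libraries did not overlap, and siControl replicate 3 was the highest. The ratio of summed reads, siControl over siSFPQ, was 9.23, with a 95% exact counting interval of 3.68 to 29.8 (adjusted p = 0.00107). The fitted log2 fold change was -3.11, and -3.76 without siSFPQ replicate 3. SFRP5 had 1, 0 and 0 counts in siControl and 5, 8 and 6 in siSFPQ, a ratio of 18.9 with an interval of 3.01 to 787 (adjusted p = 0.0137). Its size rests on 1 library, siControl replicate 1, which holds the only control read. Without it the controls were at 0, no ratio could be given, and the fitted log2 fold change went from 3.81 to 5.69. Both changes lie at levels under 1 CPM. SFRP4 had a log2 fold change of -0.32 ± 0.15, DKK1 had at most 5 counts in a library, and DKKL1 had 13, 19 and 55 counts in siControl against 37, 41 and 41 in siSFPQ. None of these 3 passed with all libraries. Without siControl replicate 3, DKKL1 (1.30, adjusted p = 0.00464) and SFRP4 (-0.45, adjusted p = 0.0164) did.

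CTNNB1, which encodes β-catenin, did not pass the test and its groups overlapped. The gene (ENSG00000168036, chromosome 3) had 20687, 21253 and 21346 counts in siControl and 20292, 21261 and 21576 in siSFPQ. Its log2 fold change was -0.01 ± 0.03 (adjusted p = 0.877). These are transcript levels, whereas the pathway acts on the β-catenin protein, which was not measured here. The scaffolds of the destruction complex APC (-0.05 ± 0.04) and AXIN1 (-0.08 ± 0.05) did not pass either. AXIN2, a scaffold that is also a widely used target gene of the pathway, had 691, 707 and 713 counts in siControl and 899, 960 and 914 in siSFPQ. All knock-down libraries were above all controls. AXIN2 rose by 0.39 ± 0.07 (adjusted p = 1.04e-05), a 1.31-fold increase, and 25.3% of its exon bases are shared with another annotated gene of the same strand.

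Of the 4 TCF/LEF factors, which carry β-catenin to DNA, 3 fell and 1 did not pass. Among tested protein-coding genes 30.9% fell, and among all genes with a mean of at least 1 CPM 34.5% fell. TCF7L1 (ENSG00000152284, chromosome 2, 85133392 to 85310387), the family member best known as a repressor, had 942, 943 and 897 counts in siControl and 291, 307 and 300 in siSFPQ. Spread within a group was small and the groups were well apart. TCF7L1 fell by 1.64 ± 0.08, a 3.11-fold reduction (adjusted p = 2.09e-18). LEF1 had 776, 896 and 835 counts in siControl and 609, 636 and 667 in siSFPQ, again without overlap, and fell by 0.40 ± 0.07 (adjusted p = 3.02e-05). TCF7L2, the most abundant of the family per length, had 2326, 2232 and 2176 counts in siControl and 1947, 2241 and 1964 in siSFPQ. Here siSFPQ replicate 2 lay within the control range. The fall of 0.14 ± 0.05 (adjusted p = 0.0277) was lost with DESeq2 (adjusted p = 0.0564) and without siControl replicate 1 (0.112), siSFPQ replicate 1 (0.169) or siSFPQ replicate 3 (0.239). TCF7 had at most 15 counts and did not pass. Of the family's per-length sum TCF7L1 supplied 29.93% in siControl and 13.75% in siSFPQ, and TCF7L2 47.66% and 61.83%.

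Promoter sequence was compared for genes of both directions. RefSeq promoters (GRCh38.p14, 250 bases before to 50 after the start) matched 40 of the 56 genes, and WNT7B and WNT11 are among those with no entry used here. The 250 bases upstream of the start are shown, 5′ to 3′ on the gene's strand, for 3 genes that fell, WNT5B (chr12:1628981-1629230, plus strand), RSPO4 (chr20:1002312-1002561, minus strand) and TCF7L1 (chr2:85133142-85133391, plus strand), and 2 that rose, WNT7A (chr3:13880072-13880321, minus strand) and WNT2B (chr1:112508715-112508964, plus strand). They were chosen, after their values were seen, among genes averaging 1 CPM or more that have a RefSeq entry, to show both directions of change. The scarcer SFRP5 and WNT16, whose fitted changes were larger than those of WNT7A and WNT2B, are not shown, and capitals mark the GC box GGGCGG read on either strand (CCGCCC is its reverse complement).
WNT5B: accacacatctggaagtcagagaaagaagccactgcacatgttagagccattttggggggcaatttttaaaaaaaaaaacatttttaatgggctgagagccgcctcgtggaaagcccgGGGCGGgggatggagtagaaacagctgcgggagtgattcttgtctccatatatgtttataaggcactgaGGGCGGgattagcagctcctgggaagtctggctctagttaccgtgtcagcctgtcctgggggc
RSPO4: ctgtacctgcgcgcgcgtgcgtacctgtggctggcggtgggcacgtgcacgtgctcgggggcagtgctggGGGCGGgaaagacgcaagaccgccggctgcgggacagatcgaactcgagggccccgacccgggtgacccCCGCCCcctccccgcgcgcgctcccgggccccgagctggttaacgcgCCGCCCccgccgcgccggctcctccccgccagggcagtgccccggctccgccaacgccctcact
TCF7L1: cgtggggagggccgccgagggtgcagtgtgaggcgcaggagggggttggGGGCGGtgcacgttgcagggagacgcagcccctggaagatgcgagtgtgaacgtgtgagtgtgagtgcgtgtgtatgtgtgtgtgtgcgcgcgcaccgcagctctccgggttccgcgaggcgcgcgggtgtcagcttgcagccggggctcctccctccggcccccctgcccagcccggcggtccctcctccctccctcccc
WNT7A: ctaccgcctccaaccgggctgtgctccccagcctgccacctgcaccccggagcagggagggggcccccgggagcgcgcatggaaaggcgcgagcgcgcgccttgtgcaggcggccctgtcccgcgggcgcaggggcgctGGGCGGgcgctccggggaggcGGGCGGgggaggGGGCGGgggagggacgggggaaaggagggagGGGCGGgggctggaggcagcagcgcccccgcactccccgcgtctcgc
WNT2B: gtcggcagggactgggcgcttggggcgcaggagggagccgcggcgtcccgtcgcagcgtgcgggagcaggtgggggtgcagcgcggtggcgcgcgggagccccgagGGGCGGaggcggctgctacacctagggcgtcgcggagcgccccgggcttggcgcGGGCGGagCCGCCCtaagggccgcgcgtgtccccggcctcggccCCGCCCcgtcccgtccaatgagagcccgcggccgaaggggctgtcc

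Genes that fell and genes that rose both carried GC boxes in these windows: 2 in WNT5B, 3 in RSPO4, 1 in TCF7L1, and 4 each in WNT7A and WNT2B. Over the 300-base windows the GC box occurred in 35 of the 40 Wnt promoters and in 45.0% of all 35116 promoters. The Wnt promoters had a median GC content of 70.8%, against 58.7% over all promoters. Among the genes shown, WNT5B had the least GC-rich 300-base window, at 52.0%. The letters TATAAA, sought on both strands, were in 4 of the 40 (WNT5B, FZD8, DKK1 and TCF7) and in 11.5% of all. The core letters CTTTGAT, bound by TCF/LEF factors, were in 0 of the 40 Wnt windows and in 2.62% of all promoters on either strand. These matches describe the letters of a short window and are not evidence of binding.

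Some Wnt genes are neighbours on a chromosome. WNT6 and WNT10A lie 6.6 kb apart on the same strand of chromosome 2, and WNT6 fell (-0.35) while WNT10A rose (0.46). On chromosome 12 WNT10B, which rose, lies 6.6 kb from WNT1, which had at most 6 counts in a library. WNT9A and WNT3A are 59.1 kb apart on chromosome 1, with log2 fold changes of 0.38 and -0.56, and only the latter passed. WNT3, which rose, is separated by 46 bp from WNT9B, which had at most 2 counts in a library. Gene length was also set beside the changes. Of the 18 tested Wnt genes whose canonical transcript spans more than 50 kb, 4 rose and 7 fell (22.2% and 38.9%), and of all tested protein-coding genes of that length 19.1% rose and 49.1% fell. Spearman's rho between span and log2 fold change was -0.137 across the 50 Wnt genes, -0.059 across the 37 of them averaging 1 CPM or more, and -0.272 across all tested protein-coding genes, where genes share libraries and are not independent.

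The wider pathway was examined through 95 further genes, of which 91 were tested: 27 rose, 36 fell and 28 did not pass. In all 69.23% passed the test, against 44.57% of all genes and 58.95% of protein-coding genes, of which 28% rose and 30.9% fell. These shares include scarce genes, which passed less often. Among all genes with a mean of at least 1 CPM 30.1% rose and 34.5% fell, and under 1 CPM 13.5% rose and 7.71% fell. Under the stricter thresholds 4 were higher and 7 lower, a share of 12.09% that compares with 10.31% of all genes and 8.25% of protein-coding genes, and the median log2 fold change was -0.01. Of the 22 tested genes of ligand secretion and the cell surface, 8 rose and 9 fell, so that 77.27% passed and 27.27% were past the fold threshold too. ROR1, a receptor tyrosine kinase for WNT5A, had 2604, 2489 and 2409 counts in siControl and 202, 247 and 242 in siSFPQ, a 10.9-fold reduction (-3.45 ± 0.07, adjusted p = 6.17e-29). Its relative ROR2 had 872, 1015 and 883 counts against 213, 259 and 232, and fell by 1.98 ± 0.09. Neither receptor had a siSFPQ library near the control range. LYPD6, an LRP6-binding membrane protein, fell by 3.21 ± 0.12, and the glypican GPC3 fell by 1.89 ± 0.24.

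In siControl the most abundant gene of this list per length of merged exons was WLS, the carrier that takes Wnt proteins to the cell surface. WLS fell by 1.03 ± 0.04, from 5053 ± 93.2 to 2473 ± 12.8 normalized counts. The next in siControl, GPC4 and PTK7, fell by 0.71 ± 0.05 and 0.45 ± 0.04. In siSFPQ the highest level was that of RYK, a Wnt-binding receptor that did not pass (0.03 ± 0.04), at 17.003 CPM per kb against 12.1 for WLS. With canonical transcript lengths RYK also led in siControl, at 44.6 against 40.7. PORCN, the enzyme that attaches the lipid to Wnt proteins, rose by 0.82 ± 0.07. RNF43, a ubiquitin ligase that removes Frizzled from the surface, had 160, 169 and 162 counts in siControl and 492, 486 and 511 in siSFPQ, a rise of 1.60 ± 0.10. Of its exon bases 68.4% are shared with ENSG00000285897 on the same strand, so reads there cannot be assigned to RNF43 alone. Its paralogue ZNRF3 did not pass (-0.07 ± 0.06). SOST, which encodes the bone antagonist sclerostin, had 7, 1 and 7 counts against 22, 22 and 25, and rose by 2.17 ± 0.53 at a level under 1 CPM.

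Of the 25 cytoplasmic genes 6 rose, 7 fell and 12 did not pass, and the 52% that passed lay below the 58.95% of protein-coding genes. BTRC, the F-box protein that recognizes marked β-catenin, was past the fold threshold, with 1999, 2161 and 2189 counts in siControl and 448, 464 and 431 in siSFPQ, a fall of 2.25 ± 0.06 (adjusted p = 6.66e-25). Its paralogue FBXW11 rose by 0.11 ± 0.04. The most abundant of this list per length in siControl were DVL3, CSNK1G2 and TNKS2 with merged exons, and CSNK1D, CSNK1G2 and DVL3 with canonical transcripts, at 41.8, 32.0 and 31.4 CPM per kb, and none of these 4 genes passed. DVL1, which relays the signal from Frizzled, rose by 0.70 ± 0.04. Of the 16 nuclear cofactors 4 rose and 5 fell (56.25% passing), none past the fold threshold. Per length of merged exons the most abundant in siControl were PYGO2 and EP300, which did not pass, and BCL9, which rose by 0.21 ± 0.04. With canonical transcripts CTBP1, a co-repressor that did not pass either, stood above PYGO2 at 26.4 against 23.4 CPM per kb. The largest change among the nuclear cofactors was that of CTBP2, which fell by 1.39 ± 0.04 (adjusted p = 1.17e-23). Of the exon bases of CTBP2, 34.2% lie opposite annotated genes of the other strand. Of the 11 genes of planar cell polarity 3 rose and 5 fell (72.73% passing). PRICKLE1 had 1216, 1285 and 1244 counts against 322, 388 and 357, and fell by 1.82 ± 0.07. Of its exon bases 27.9% lie opposite annotated genes of the other strand. VANGL2 rose by 0.28 ± 0.04, CELSR2 rose by 0.34 ± 0.06 and VANGL1 fell by 0.20 ± 0.04.

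Of the 21 tested genes known as transcriptional targets of β-catenin in other systems, 9 rose and 10 fell, and the 90.48% that passed stand beside the 58.95% of protein-coding genes. All of them but MMP7 had a mean of at least 1 CPM, and among all genes at that level 30.1% rose and 34.5% fell. Past the fold threshold too were 19.05% of the list, beside 8.25% of protein-coding genes and 10.31% of all genes. EPHB2, a receptor tyrosine kinase of intestinal crypts, had 4765, 5134 and 4781 counts in siControl and 599, 690 and 629 in siSFPQ, and fell by 2.94 ± 0.05 (adjusted p = 3e-30). TNFRSF19 rose by 2.14 ± 0.17, from 45.7 ± 10.7 to 202 ± 12.8 normalized counts, and FGF18 rose by 1.85 ± 0.21, from 31.4 ± 6.82 to 114 ± 5.64. NKD1 and NOTUM, which encode antagonists of the pathway, rose by 0.66 ± 0.08 and 0.77 ± 0.09, while ZNRF3, a ubiquitin ligase that removes Frizzled from the surface, stood at -0.07 ± 0.06 and did not pass (adjusted p = 0.353). MYC rose by 0.57 ± 0.05, whereas CCND1 fell by 0.26 ± 0.04 and SOX9 by 0.60 ± 0.04. JUN, with CCND1 and SOX9 among the most abundant of the list per length of merged exons, rose by 0.13 ± 0.04. With canonical transcripts BMP4, which fell by 0.81 ± 0.04, stood above JUN in siControl, at 58.0 against 54.3 CPM per kb. EPHB3, PPARD, ID2, TBX3, TNFRSF11B and VEGFA also fell, and CD44, FOSL1 and RNF43 also rose.

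Markers of cell type were read in the same libraries. SPARC and COL1A1 were abundant and RUNX2 present in every library (2541 to 2872 counts), while the osteoblast genes SP7 and IBSP were at or near 0 and COL1A2 was scarce. BGLAP, which encodes osteocalcin, had 0, 0 and 1 counts in siControl and 5, 6 and 6 in siSFPQ and passed both thresholds (adjusted p = 0.0199), with 40.9% of its exon bases shared with a readthrough gene. Of the 8 osteoblast markers 6 were tested, 1 rose (BGLAP) and 2 fell (COL1A1 by 0.35 and SPARC by 0.17). RUNX2 (0.06 ± 0.04), ALPL (-0.08 ± 0.15) and COL1A2 (0.39 ± 0.26) did not pass. The summed normalized counts of 8 osteoblast markers were 237600 ± 7650 in siControl and 197700 ± 734 in siSFPQ. Nearly all of that sum was COL1A1 and SPARC, with means of 133111 and 101646 in siControl, so it describes these genes and not the list. Of the 5 epithelial markers CDH1 rose by 0.76 and KRT5 by 0.59, and KRT14, the most abundant in siControl, fell by 1.82, from 690 ± 24.3 to 195 ± 14.1 normalized counts. EPCAM, with 233 ± 21.7 in siControl and 206 ± 21.1 in siSFPQ, did not pass (-0.18 ± 0.12), and neither did the scarce KRT19. The sum of the 5 epithelial markers was 999.9, 1077 and 1003 in siControl and 583.8, 589.1 and 540.5 in siSFPQ. Of the 4 neuronal markers TUBB3 rose by 1.17, while RBFOX3 fell by 2.84, from 275, 301 and 298 counts to 34, 36 and 52. SNAP25, with the highest normalized counts of the 4 in siControl, fell by 1.64, and SYP did not pass (0.28 ± 0.16). Per kb of merged exons RBFOX3 (0.631 CPM) and TUBB3 (0.491) stood above SNAP25 (0.451) in siControl. The 4 neuronal markers summed to 1031, 905 and 1007 in siControl and 674.5, 652.7 and 696.4 in siSFPQ. The fall of KRT14 was larger than that of the epithelial sum, and the median log2 fold change of the epithelial list was 0.59. The 3 endothelial markers, mostly VWF, summed to 194.4, 251 and 197.5 in siControl and 335.2, 309.2 and 298.9 in siSFPQ, and 2 of them rose. Of the blood cell markers, PTPRC had 26, 30 and 39 counts in siControl and 12, 14 and 5 in siSFPQ and fell, CD14 had 0, 3 and 4 against 7, 9 and 7 and did not pass (adjusted p = 0.13), and CD3E was at or near 0. The part of these shifts in the Wnt changes was not tested.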

How the data were processed

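RNA of 3 siControl and 3 siSFPQ libraries of U-2 OS cells was analysed, grouped by sample label. Per the study's methods and the submitters' processing notes, the authors checked reads with FastQC, aligned them with STAR 2.7.9a to GRCh38 and counted them per Ensembl gene. The deposited values are raw counts. The library kit keeps strand, and the strand setting of the counting is not given in the sources used here. Of the table's gene IDs, 60463 of 60664 matched GENCODE 44, used for names, positions and exon lengths, and 0 columns were left unused.

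The quasi-likelihood test of edgeR 4.0.16 (R 4.3.3, TMM scaling, no covariate) was run on the 29022 genes with 10 or more counts in total, and p-values were adjusted over them by Benjamini-Hochberg. A gene was called where the adjusted p was under 0.05 and the fold change beyond 1.5 on the log2 scale, the thresholds of the study's methods. Normalized counts are counts divided by the TMM-scaled library size relative to the geometric mean of the libraries. Levels between genes are CPM per kb of merged exons. The standard error is the size of the log2 fold change over the square root of F. Floors and intervals cover counting error only. The procedure was tested on simulated data, and the outcome of that is not reported here.

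Alternatives were DESeq2 1.42.0, other scaling and filters, protein-coding genes alone, other thresholds, a replicate block and leaving out each library. The members and pathway and marker lists were chosen with earlier results of these data known. By rule, values per library were given for members past both thresholds, for the most abundant of each role, and for CTNNB1, AXIN2 and LEF1. Of the other pathway genes, those past both thresholds and the 3 most abundant of each list were named. Further genes were named after their values were seen. The study's enrichment analysis was not repeated. A blood cell marker is not reported here.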

Additional observations from a re-analysis of the deposited data

How the results depend on the processing

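The calls for WNT5B, WNT11, RSPO4, TCF7L1 and WNT7B were kept in 13 of 13 alternatives, and those for DKK2 and SFRP5 in the 12 in which they were tested. The number of Wnt genes called higher was 1 with edgeR's filter on low counts, which removes scarce genes, and 6 with a log2 threshold of 1, and the number called lower was 4 or 5 throughout. Over all genes, calls higher went from 1609 to 967 with that filter and to 581 among protein-coding genes alone, where calls lower went from 1384 to 830, fewer genes being tested in each case. Scaling by library size alone shifted the median of all genes by 0.06 on the log2 scale, turned the signs of APC (0.0138), CTNNB1 (0.0549) and FZD1 (0.0125), none past the test, lost TCF7L2 (adjusted p = 0.267), and let FZD3 (0.16) and WNT9A (0.45) pass the test. It also put WNT7A past the fold threshold (1.545), so that 4 Wnt genes were called higher. CTNNB1 was 0.00224 among protein-coding genes alone. Leaving out a library gave -0.022 to 0.00854 for CTNNB1, -0.41 to 0.55 for DKK1 and -0.0219 to 0.68 for RSPO1, again without a call. Same-numbered libraries were not paired in the main test. Their deviations correlated at -0.00327, 0.0881 and 0.0547, and those of differently numbered libraries at -0.0799 to 0.0252. These small values cannot show whether replicates shared a preparation. With the replicate number as a block 14 Wnt genes rose and 17 fell, 2 were called higher and 5 lower, WNT16 was lost (3.05, adjusted p = 0.0662) and WNT9A gained (0.41, adjusted p = 0.0243). Over all genes the block gave 1419 calls higher and 1240 lower, SFPQ stood at -2.74, and calls for the other pathway genes stayed at 4 and 7. With canonical transcript lengths, an alternative chosen after seeing the data, the most abundant gene of each role was the same, but the level of DKK3 in siControl was 130.1 in place of 27.5 CPM per kb and that of CTNNB1 126.1 in place of 39.3. The share of DKK3 in the antagonist sum in siControl was then 87.98% in place of 62.56%, and that of SFRP1 10.59% in place of 33.64%. Genes under 1 CPM, WNT16, SFRP5 and DKK2 among them, rest on few reads.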
